A study of Sus scrofa with 15 samples.

Results

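Within 15 single-pig arrays of Longissimus muscle, the main back muscle, 7 arrays numbered 55 to 62 were set against 8 arrays numbered 1 to 8. The number is the last one in the name of each scanner file. What it stands for is not given in the sources used here. The labels assign no treatment to the sets, and each set holds pigs of both lines. Each pig weighed 20 kg, was fed ad libitum and came from 1 of 2 lines selected on residual feed intake (RFI), the feed eaten beyond what maintenance and growth are predicted to need. Arrays 55 to 62 held 3 pigs of the low-RFI line (RFIneg) and 4 of the high-RFI line (RFIpl). Arrays 1 to 8 held 4 pigs of each line. Each of the 4 slides carried arrays of both sets, although on slide 2 the only array of the high-numbered set was RFIpl replicate 5.

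The description covers the 31981 of 43603 non-control probes that the scanner called well above background in 7 or more arrays of 15. They represent 4944 named genes, each by its probe of highest mean level. A level is the log2 of the scanner's processed signal minus the 75th percentile of that array, and a difference is always arrays 55 to 62 minus arrays 1 to 8, fitted with line as a covariate and given with its standard error (SE). The 493 probes well above background on exactly 7 arrays had a median level of -5.16 and a median absolute difference of 0.28. The 486 probes on exactly 6 arrays, just outside the rule, had -5.30 and 0.28.

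The split was chosen because these same values separated the arrays, so the differences between the sets are given as a description with no test, and they support nothing by themselves. In bulk muscle, fewer cells of a type and less RNA per cell cannot be told apart. The labelled tissue held: of 10 genes that define skeletal muscle, 8 were measured and every one was well above background on all 15 arrays. ACTA1, CKM, MYH1, MYH4, TNNT3, MYLPF and DES lay at or above the 99.0th percentile of gene levels on each array, and MB, myoglobin, at or above the 80.7th.

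Interferons bind receptors on the cell surface and signal through STAT2, IRF9 and partner factors to switch on antiviral genes, and interferon gamma also raises the genes that load peptides on MHC molecules. MHC class I shows peptides from inside any nucleated cell to cytotoxic T cells, and MHC class II, mostly on macrophages, dendritic cells and B cells, shows engulfed peptides to helper T cells. Muscle fibres differ by their myosins: slow type I fibres carry MYH7 and rely on oxidation, and fast type II fibres carry MYH2, MYH1 or MYH4 and rely more on glycolysis. The back muscle of the pig is known as a mainly fast muscle.

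The 8 probes below are printed as deposited, 5′ to 3′ and in lower case throughout, since each value belongs to one 60-base probe and not to a whole transcript. The first 5 belong to genes with higher levels on arrays 55 to 62 and the last 3 to genes with lower levels. Each is free of stop codons, apart from a terminal one, in at least 1 forward frame.
FCGR1A: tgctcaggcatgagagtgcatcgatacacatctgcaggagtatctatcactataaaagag
PSMB9: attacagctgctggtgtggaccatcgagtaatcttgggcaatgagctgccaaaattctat
CD74: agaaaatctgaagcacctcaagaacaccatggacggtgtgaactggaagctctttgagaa
ISG15: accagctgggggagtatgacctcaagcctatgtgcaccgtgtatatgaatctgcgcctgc
MYL2: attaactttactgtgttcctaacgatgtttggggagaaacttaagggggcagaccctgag
LBX1: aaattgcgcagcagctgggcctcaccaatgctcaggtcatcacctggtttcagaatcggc
MAB21L1: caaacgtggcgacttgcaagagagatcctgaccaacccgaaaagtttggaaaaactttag
CLDN11: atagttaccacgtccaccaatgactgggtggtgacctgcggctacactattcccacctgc

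Across the 4944 genes the median difference was -0.05, and 2030 genes (41.1%) were higher on arrays 55 to 62. Levels of the 7 and the 8 arrays did not overlap for 24 genes that were higher on arrays 55 to 62 (0.485% of genes) and 22 that were lower (0.445%). A difference of at least 1.5-fold was found for 270 genes in the higher direction (5.46%) and 66 in the lower (1.33%). Both conditions held for 19 genes higher and 5 lower (0.384% and 0.101%). Over probes the counts were 151 and 123 without overlap (0.472% and 0.385%) and 1474 and 454 past 1.5-fold (4.61% and 1.42%).

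Immune genes made up much of the higher side. The 9 immune lists held 138 described genes. Of these, 83 were at least 1.5-fold higher and 2 at least 1.5-fold lower, out of 270 and 66 among all genes. They also gave 11 of the 24 genes that were higher without overlap and none of the 22 that were lower. FCGR1A, among the 83 and the 11, met the rule for described probes only through arrays 55 to 62. CD86, CD2, CD3G and NCF1, also among the 83, were well above background on too few of arrays 1 to 8 to meet it without arrays 55 to 62. Such genes were not counted, and their place among the 83 supports nothing.

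**Figure D1:**
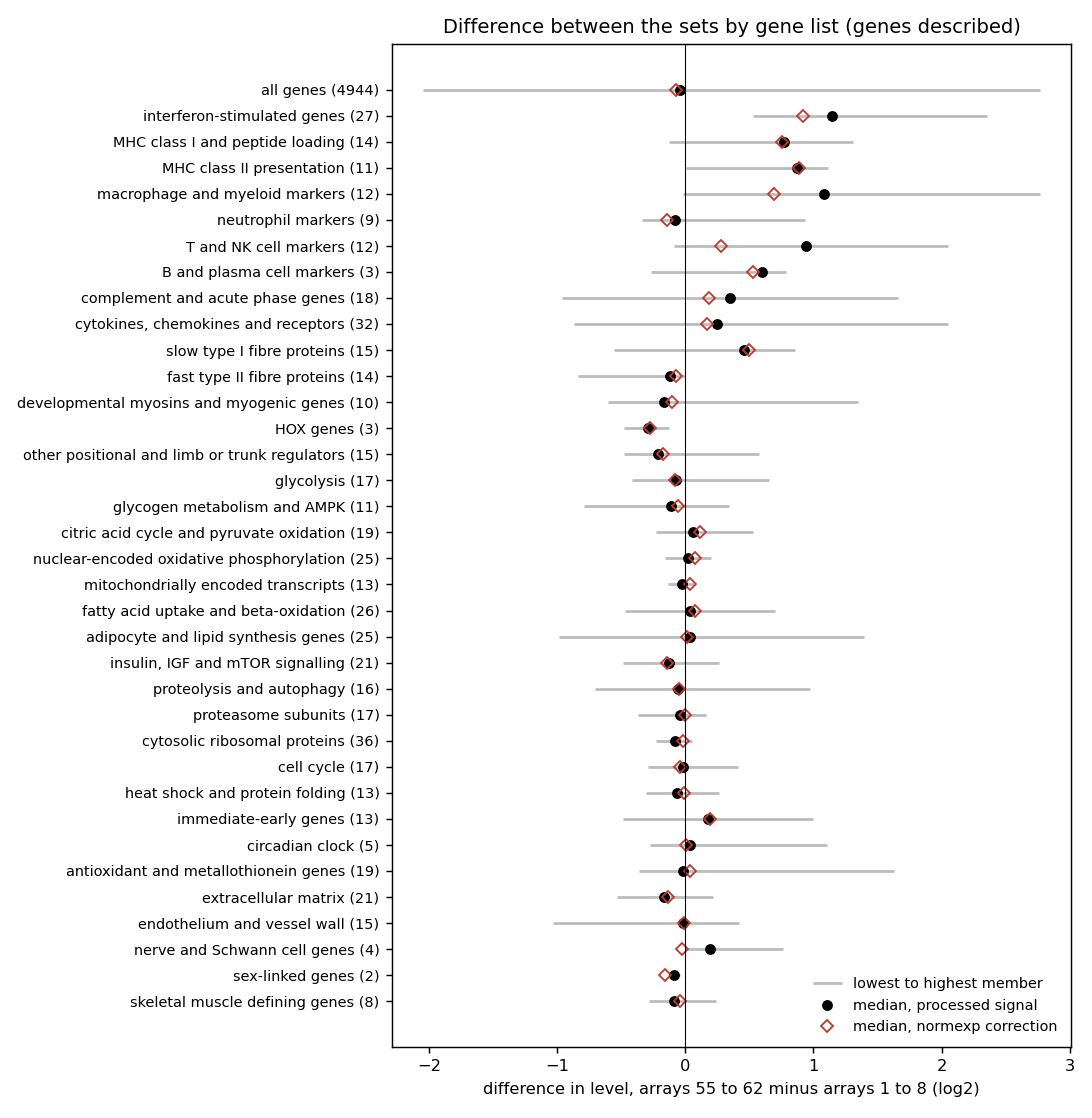
Difference in level between arrays 55 to 62 and arrays 1 to 8 (log2, x axis) for each gene list, with the number of described genes in brackets. Grey lines run from the lowest to the highest member, black dots are medians from the processed signal and red diamonds medians after normexp background correction; the interferon list sits at 1.14 and 0.91, the T and NK cell list moves from 0.94 to 0.28, and all genes lie at -0.05 and -0.07.

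All 27 described interferon-stimulated genes were higher on arrays 55 to 62, with a median difference of 1.14 and a range of 0.53 to 2.35, and 24 were at least 1.5-fold higher. The mean level of the list ran from -0.89 to 0.08 with a median of -0.57 on arrays 1 to 8, and from 0.08 to 1.73 with a median of 0.58 on arrays 55 to 62. These ranges meet without crossing: the highest of arrays 1 to 8 was 0.077 and the lowest of arrays 55 to 62 was 0.085. RFIpl replicate 5 stood highest, at 1.73, followed by RFIneg replicate 6, at 1.39.

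ISG15, a ubiquitin-like protein that is attached to other proteins, ran from 2.10 to 3.98 (median 3.04) on arrays 1 to 8 and from 3.69 to 5.37 (median 4.64) on arrays 55 to 62, a 2.89-fold difference (1.53 ± 0.31). The sets overlapped. USP18, which removes ISG15 from proteins, ran from 0.82 to 2.14 (median 1.25) and from 2.08 to 3.15 (median 2.70), with a difference of 1.28 ± 0.20. The sets overlapped narrowly for USP18. IRF9, which carries the signal of type I interferon receptors to DNA, ran from -0.08 to 0.53 and from 0.74 to 1.98 without overlap, with a difference of 1.05 ± 0.19. The cytosolic RNA sensors IFIH1 and DDX58 differed by 1.16 ± 0.20 and 1.14 ± 0.20, with overlap in both.

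ISG12(A), an interferon-induced gene of the IFI27 family, was 2.80-fold higher and showed no overlap. It ran from 3.78 to 5.30 (median 4.60) on arrays 1 to 8, mean 4.65 ± 0.48 (SD, n = 8), and from 5.34 to 6.91 (median 6.16) on arrays 55 to 62, mean 6.14 ± 0.57 (SD, n = 7). The difference was 1.30, 2.17, 1.46 and 1.28 on slides 1 to 4. As the sets did not overlap, the sign within every slide was fixed in advance, and only the sizes are described. TLR3, a receptor for double-stranded RNA, also showed no overlap, from -2.37 to -1.99 against -1.72 to -0.82 (difference 0.76 ± 0.14). TLR3 and the next genes were named after their values were seen. The chemokines CXCL9 and CXCL10, ligands of the chemokine receptor CXCR3 on T cells, differed by 2.35 ± 0.78 and 1.83 ± 0.66, and the guanylate-binding protein GBP4 by 2.26 ± 0.76. Their sets overlapped, and each was highest in RFIpl replicate 5; without that array the differences were 1.82, 1.31 and 1.72. MX1 and RSAD2, which block viral replication, differed by 1.81 ± 0.49 and 1.84 ± 0.37.

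In the list of MHC class I and peptide loading, 11 of 14 genes were higher, with a median of 0.77, and 9 were at least 1.5-fold higher. PSMB9, a catalytic subunit of the immunoproteasome, ran from 1.30 to 1.95 (median 1.72) on arrays 1 to 8 and from 2.03 to 4.69 (median 2.43) on arrays 55 to 62, without overlap. Its fitted difference was 1.31 ± 0.39, and 1.01 without RFIpl replicate 5. The difference of its set medians was 0.71. The other inducible subunits PSMB8 and PSMB10 differed by 1.12 ± 0.52 and 0.78 ± 0.27, the peptide transporter TAP1 by 0.94 ± 0.34 and B2M, the invariant light chain, by 0.76 ± 0.21. The 3 members that were not higher were TAP2, CD1D and NLRC5, at -0.06 ± 0.07, -0.10 ± 0.11 and -0.13 ± 0.12.

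The pig class I heavy chains SLA-5, SLA-3, SLA-1 and SLA-8 differed by 1.17 ± 0.23, 1.10 ± 0.23, 1.10 ± 0.26 and 0.70 ± 0.18. Only SLA-5 had no overlap, from 3.81 to 4.37 against 4.42 to 6.45. These genes are near-identical copies, so the probes may read each other's transcripts and the values of single members are uncertain. RFIneg replicate 6 was the highest array for all 4; without it SLA-5 gave 0.91 and SLA-1 gave 0.93.

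All 11 genes of MHC class II presentation were higher, with a median of 0.87, and 10 of them by at least 1.5-fold. The mean level of the list ran from 1.06 to 1.28 on arrays 1 to 8 and from 1.56 to 3.09 on arrays 55 to 62, so the list did not overlap. Arrays 1 to 8 lay close together, 1.21 ± 0.08 (SD, n = 8), and arrays 55 to 62 were spread, 2.07 ± 0.53 (SD, n = 7). For 5 genes there was no overlap. SLA-DRA, an alpha chain, ran from 3.55 to 4.02 (median 3.70) and from 4.23 to 5.82 (median 4.68), with a difference of 1.09 ± 0.19, and all 7 of its described probes gave the same sign. SLA-DQB1 and SLA-DQA1 differed by 1.12 ± 0.19 and 1.08 ± 0.21. SLA-DMB, a chain of the chaperone that loads peptides, differed by 1.04 ± 0.24. CD74, the invariant chain that guides class II molecules, ran from 0.70 to 1.33 and from 1.68 to 2.80, with a difference of 0.99 ± 0.18. SLA-DOB was at 0.00 ± 0.21.

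**Figure D2:**
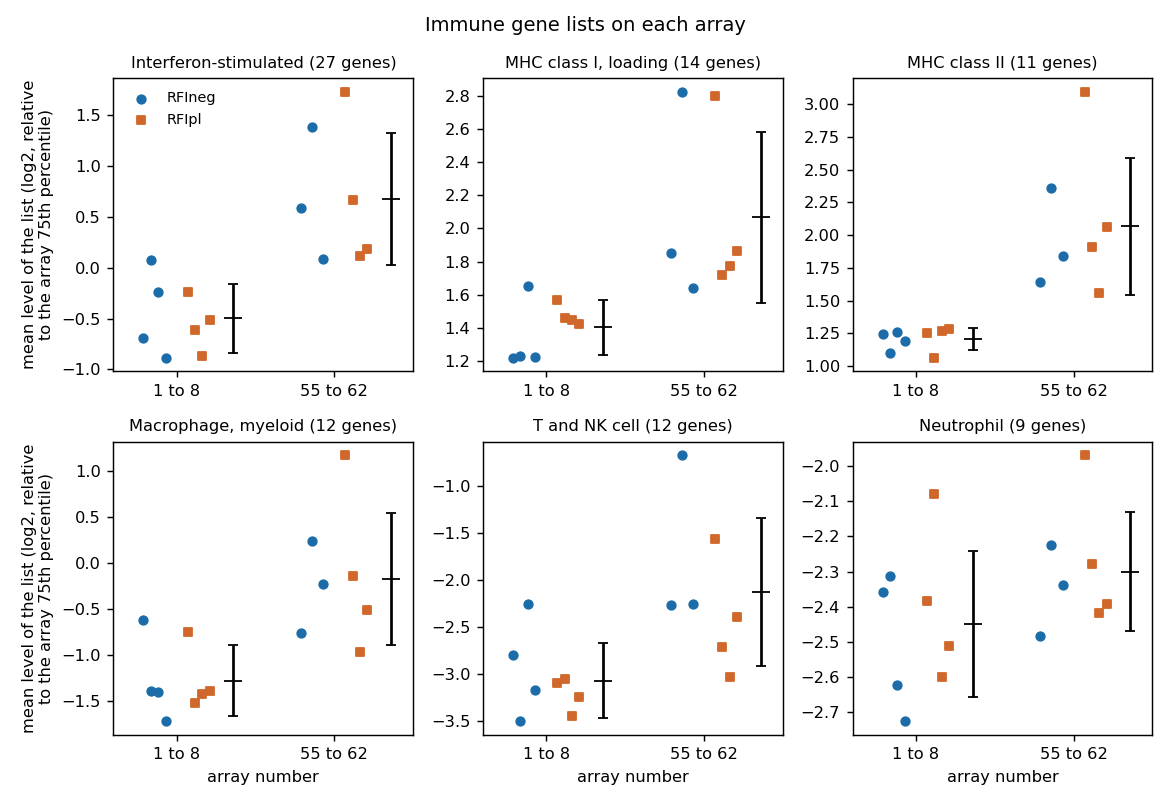
Mean level of 6 immune gene lists (log2 relative to the array's 75th percentile, y axis) on arrays 1 to 8 (n = 8) and 55 to 62 (n = 7); each point is 1 pig, blue for RFIneg and orange for RFIpl, with mean and SD in black. The MHC class II list spans 1.06 to 1.28 against 1.56 to 3.09 with no overlap, and the neutrophil list, -2.73 to -2.08 against -2.48 to -1.97, overlaps widely.

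Markers of macrophages and other myeloid cells were higher for 11 of 12 genes, with a median of 1.08. At least 1.5-fold higher were 9 of them, and 6 with normexp background correction. FCGR1A, the high-affinity IgG receptor, was well above background on none of the 8 arrays numbered 1 to 8 and on all 7 of the others. FCGR1A thus met the rule of 7 or more arrays only through the set where it was high. Its place among the higher genes of the list supports nothing. For the processed signal only a bound can be given: FCGR1A was at least 2.51-fold higher on arrays 55 to 62. Levels there ran from -4.64 to -1.58 (median -3.97). The bound sets the bright mean against the lowest signal well above background on each dim array. With normexp the difference of FCGR1A was 0.40, under 1.5-fold, so the bound does not hold under that correction. CD86, a costimulatory ligand, was well above background on 4 of 8 and 7 of 7 arrays and differed by 1.65 ± 0.43. CD86 too needed arrays 55 to 62 to meet the rule. FCER1G, the shared signalling chain of Fc receptors, ran from -0.71 to 0.21 and from -0.16 to 2.15, a difference of 1.09 ± 0.30. CD53 differed by 1.16 ± 0.32, AIF1 by 1.07 ± 0.30, LYZ, lysozyme, by 1.73 ± 0.56 and TYROBP by 0.96 ± 0.28. The monocyte and macrophage receptors CD14 and CD163 differed by 0.07 ± 0.18 and 0.45 ± 0.26. Of the 6 defining macrophage markers 4 were measured, all above background on all 15 arrays, and their summed level ran from 2.12 to 2.97 on arrays 1 to 8 and from 2.50 to 4.54 on arrays 55 to 62.

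T and NK cell markers were higher for 11 of 12 genes, with a median of 0.94. CD2 was well above background on 2 of 8 and 7 of 7 arrays and differed by 2.05 ± 0.49. The T cell receptor chains CD3G and CD3D differed by 1.72 ± 0.52 and 1.28 ± 0.37, and CD3G was well above background on 3 of 8 and 6 of 7 arrays. CD2 and CD3G thus needed arrays 55 to 62 to be described at all, so their place among the higher genes supports nothing. CD247, the zeta chain, was well above background on all 15 arrays and ran from -1.07 to 0.79 (median -0.22) and from 0.23 to 1.20 (median 0.59), with a difference of 0.75 ± 0.22. LCK, the kinase that starts receptor signalling, was at -0.09 ± 0.09. With normexp background correction the median of the list was 0.28. The 5 defining T cell markers had a summed level of -1.53 to -0.58 on arrays 1 to 8 and -1.27 to 1.06 on arrays 55 to 62; 1 of the 5 was well above background on all 15 arrays. RFIneg replicate 6 was the highest array, and without it the median of the list was 0.60.

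Neutrophil genes gave no common shift: 4 of 9 were higher and the median was -0.08. S100A9, S100A12 and S100A8, the defining markers used here for these cells, differed by -0.34 ± 0.19, -0.09 ± 0.16 and 0.09 ± 0.28. Past 1.5-fold were 2 members, among them NCF1, an oxidase subunit that macrophages also carry, at 0.87 ± 0.29. NCF1 was well above background on 2 of 8 and 7 of 7 arrays and gave 0.0046 with normexp, under which 0 of the 9 genes were past 1.5-fold. Of the B cell list only 3 genes were described, BLNK at 0.78 ± 0.27, CD40 at 0.60 ± 0.27 and PAX5 at -0.27 ± 0.11; none of the defining markers CD79A, CD79B and MS4A1 was. The median of those 3 was 0.60 and fell to 0.17 when set medians replaced the fitted means.

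Among cytokines, chemokines and their receptors, 23 of 32 genes were higher, with a median of 0.25, and 12 were at least 1.5-fold higher. IL18, which drives interferon gamma production, ran from -2.12 to -0.64 and from -0.88 to 2.17, a difference of 1.75 ± 0.37. The anti-inflammatory cytokine IL10 differed by 1.56 ± 0.31. TNF and IL1A, early inflammatory cytokines, were at -0.15 ± 0.12 and -0.31 ± 0.16. TGFB2 was the 1 member at least 1.5-fold lower, from -1.29 to -0.17 against -1.88 to -0.76 (difference -0.87 ± 0.20). Of 18 complement and acute phase genes, 10 were higher, with a median of 0.35. That median was 0.06 from set medians, 0.09 in RFIneg and 0.09 without RFIpl replicate 5. C2 and C4A, which form the classical convertase, differed by 1.44 ± 0.40 and 1.24 ± 0.36, C1QA by 0.97 ± 0.28 and C8G by 0.97 ± 0.25. The mean over the 2 probes of C2 gave 0.89, and C8G gave 0.25 with normexp. ITIH4, an acute phase protein of the liver, was the 1 member at least 1.5-fold lower, at -0.96 ± 0.34. CRP, HP and LBP, acute phase proteins made mainly by the liver, were at -0.06 ± 0.13, -0.03 ± 0.29 and -0.04 ± 0.17.

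Genes of slow fibres tended to higher levels. The list of fast fibre genes lay close to all genes, with a few members lower by more. Every gene overlapped between the sets. Of 15 slow type I genes, 12 were higher, with a median of 0.46, and 7 were at least 1.5-fold higher. Of 14 fast type II genes all were lower, with a median of -0.12, and 3 were at least 1.5-fold lower. Over all genes the median was -0.05, and 2914 of 4944 were lower. TNNI1, slow troponin I, ran from 4.65 to 6.61 (median 5.79) and from 5.58 to 7.55 (median 6.51), a difference of 0.86 ± 0.32. MYL2, the slow regulatory light chain, ran from 7.35 to 8.77 and from 8.18 to 9.35, a difference of 0.63 ± 0.24. MYOZ2 and CASQ2, a slow-fibre Z-disc protein and calsequestrin, differed by 0.77 ± 0.37 and 0.63 ± 0.23. MYH7, the slow myosin heavy chain, differed by 0.32 ± 0.16, and the mean over its 8 probes gave 0.67.

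The slow list was not higher on every slide: its median was 0.34, -0.23, 0.39 and 0.87 on slides 1 to 4, and RFIpl replicate 5, alone for its set on slide 2, gave the negative value. TNNI1 and MYL2 gave -0.22 and -0.02 there. Without RFIpl replicate 5 the median of the slow list was 0.55, and without either RFIneg replicate 6 or RFIpl replicate 3 it was 0.30.

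Among fast genes, PVALB, the calcium buffer parvalbumin, ran from 6.35 to 7.40 (median 6.88) and from 5.72 to 6.59 (median 6.16), a difference of -0.79 ± 0.17, with -0.96, -0.56, -0.50 and -1.12 on the slides. ATP2A1, the fast calcium pump, differed by -0.39 ± 0.13, with a mean of -0.66 over its 2 probes, and TNNT3, fast troponin T, by -0.29 ± 0.10. PRKAG3, the AMPK subunit of glycolytic muscle, differed by -0.80 ± 0.33, and RFIneg replicate 3 was the highest of arrays 1 to 8; without it the value was -0.60. MYH2, the myosin of type IIA fibres, named after its value was seen, differed by -0.84 ± 0.35, with -0.15 in RFIneg and -1.43 in RFIpl. MYH1 and MYH4, the main fast myosins, were at -0.09 ± 0.09 and 0.00 ± 0.09. With quantile normalization the median of the fast list was -0.03, against -0.12, while PVALB had a value of -0.75. The median over all genes was then also -0.03. With normexp the fast list and all genes both had a median of -0.07, and 2 of the 14 fast genes were higher.

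**Figure D3:**
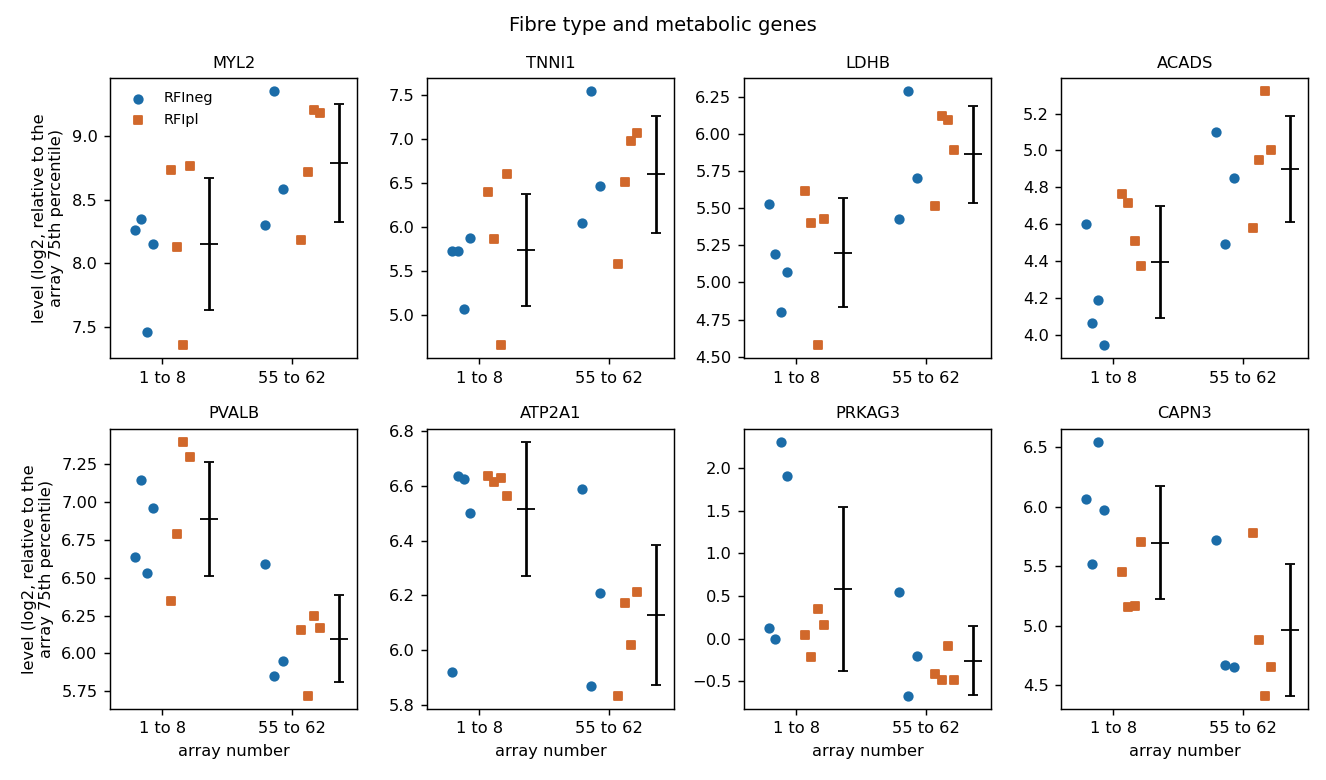
Levels of 8 fibre type and metabolic genes (log2 relative to the array's 75th percentile, y axis) on arrays 1 to 8 and 55 to 62; points are pigs, blue RFIneg and orange RFIpl, with mean and SD in black. MYL2, TNNI1, LDHB and ACADS sit higher on arrays 55 to 62 and PVALB, ATP2A1, PRKAG3 and CAPN3 lower, and every gene overlaps between the sets.

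Of 10 developmental and myogenic genes, 3 were higher. CHRNA1, the acetylcholine receptor subunit found at the neuromuscular junction, ran from -3.38 to -2.23 (median -2.90) and from -2.40 to -0.79 (median -1.45), a difference of 1.34 ± 0.24. MEF2C, a transcription factor of muscle genes, ran from 3.31 to 4.17 and from 2.94 to 3.64, a difference of -0.61 ± 0.12. MSTN, myostatin, a brake on muscle growth, differed by -0.43 ± 0.17, and MYOD1 and MYOG by 0.16 ± 0.17 and 0.07 ± 0.11.

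Positional genes were mostly lower by small amounts. Of the HOX list, which marks position along the body axis, only 3 of 39 genes were described: HOXA4 at -0.48 ± 0.24, HOXB13 at -0.30 ± 0.30 and HOXC4 at -0.13 ± 0.07. For HOXC4 1 of 2 probes had the opposite sign, and their mean gave 0.09. Of 15 other regulators of limb, trunk and head identity, 12 were lower, with a median of -0.22, and no gene reached 1.5-fold. The mean level of that list ran from -1.48 to -1.31 on arrays 1 to 8 and from -1.65 to -1.49 on arrays 55 to 62. EMX2, a homeobox factor also used in the limb girdle, ran from -2.96 to -2.65 and from -3.56 to -2.89, a difference of -0.48 ± 0.10. ZIC1 and LBX1, the latter a factor of migrating muscle precursors, differed by -0.36 ± 0.11 and -0.37 ± 0.13, and PBX3, a HOX cofactor, by 0.57 ± 0.19. For PBX3 1 of 2 probes had the opposite sign, and their mean gave 0.28. MAB21L1, a developmental gene outside the lists, had the largest lower difference without overlap: it ran from -0.87 to -0.11 (median -0.65) and from -2.27 to -1.18 (median -1.57), a difference of -1.08 ± 0.16. On slides 1 to 4 the differences were -1.12, -0.81, -1.35 and -0.86, with a sign that the lack of overlap had fixed. All 4 of its described probes had the same sign, and their mean gave -0.60.

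Metabolic lists as a whole stayed near 0. The median was -0.07 for 17 glycolytic genes, 0.06 for 19 of the citric acid cycle, 0.02 for 25 nuclear genes of oxidative phosphorylation, -0.03 for 13 mitochondrially encoded transcripts, 0.04 for 26 of fatty acid oxidation and 0.04 for 25 of adipocytes and lipid synthesis. No gene of oxidative phosphorylation reached 1.5-fold; the range was -0.16 to 0.20. On slide 2 these 25 genes had a median of -0.34, and on slide 3 of 0.34. Their median was 0.21 in RFIneg and -0.09 in RFIpl, and that of the citric acid cycle 0.23 and -0.09. Of 11 genes of glycogen metabolism and AMPK, 8 were lower, with a median of -0.11. That median was 0.00 in RFIneg and -0.19 in RFIpl.

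Single enzymes did differ. LDHB, the heart-type lactate dehydrogenase that favours lactate use, ran from 4.58 to 5.62 (median 5.29) and from 5.43 to 6.29 (median 5.89), a difference of 0.65 ± 0.17, with the same sign in all 12 of its described probes. LDHA, the muscle type, was at -0.19 ± 0.07 and PGAM1 at -0.42 ± 0.14, with a mean of -0.25 over its 2 probes. ACADS, short-chain acyl-CoA dehydrogenase, differed by 0.49 ± 0.13, UCP2 by 0.70 ± 0.27 and PDK3, an inhibitor of pyruvate oxidation, by 0.53 ± 0.16. Of the 25 genes of adipocytes and lipid synthesis 15 were higher. The largest differences of that list were those of SCD, 1.40 ± 0.52, FASN, 0.87 ± 0.30, and ACLY, 0.66 ± 0.24, and the lowest was that of PCK2, -0.99 ± 0.29. Other enzymes of fatty acid synthesis, ACACA, ACACB and ME1, were at 0.46 ± 0.19, 0.08 ± 0.12 and 0.24 ± 0.23, and ACACA gave 0.03 with normexp. RFIneg replicate 7 was the highest array for SCD, FASN and ACLY, and without it ACLY gave 0.41, FASN 0.69 and SCD 1.03. For FASN, 1 of 3 probes had the opposite sign and the mean over probes was 0.53. The fat cell markers ADIPOQ, LEP and FABP4 were at 0.07 ± 0.50, -0.06 ± 0.13 and 0.28 ± 0.16.

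In the remaining lists a few genes stood out. FBXO32, atrogin-1, a ubiquitin ligase of muscle wasting, ran from 1.35 to 2.76 and from 1.98 to 4.31, a difference of 0.97 ± 0.31. CAPN3, the muscle calpain, differed by -0.70 ± 0.23, and FOXO3 and GRB10 by -0.49 ± 0.11 and -0.38 ± 0.11. ARNTL, the clock activator BMAL1, differed by 1.11 ± 0.27, with 0.41 in RFIneg and 1.71 in RFIpl. MT1A, a metallothionein, differed by 1.63 ± 0.64. FLT1, a VEGF receptor, differed by -1.04 ± 0.27 from the gene's brightest probe, but 1 of its 3 probes had the opposite sign and their mean gave -0.25. Of 21 extracellular matrix genes 17 were lower, with a median of -0.17, FN1 and FBN1 by -0.46 ± 0.14 and -0.39 ± 0.14. Ribosomal proteins (36 genes) and proteasome subunits (17) had medians of -0.09 and -0.04.

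Among genes without overlap that belong to no list, SLC9A3R1, a scaffold for membrane transporters and receptors, had the largest ratio of difference to error. It ran from -1.29 to -0.47 (median -0.69) on arrays 1 to 8, mean -0.80 ± 0.33 (SD, n = 8), and from -0.02 to 0.73 (median 0.50) on arrays 55 to 62, mean 0.49 ± 0.25 (SD, n = 7). The difference was 1.31 ± 0.12, or 2.47-fold, and 1.08 with normexp. It was 1.14, 1.69, 1.19 and 1.23 on the slides, 1.12 in RFIneg and 1.47 in RFIpl. With no overlap, the sign on each slide and in each line was fixed in advance. Leaving out each array in turn gave 1.24 to 1.37. TTF2, a transcription termination factor, differed by 1.24 ± 0.29, and ABCA1, the cholesterol exporter, named after its value was seen, by 0.85 ± 0.15, from 0.80 to 1.48 against 1.51 to 2.43.

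The lower genes without overlap had small differences apart from the first few. CLDN11, a tight junction protein, ran from -2.40 to -1.34 and from -3.26 to -2.43 (difference -0.85 ± 0.16). KCTD17 ran from -2.61 to -1.69 and from -3.66 to -2.87 (difference -0.85 ± 0.13). NFIX, a transcription factor of the fetal muscle programme, ran from 3.93 to 4.78 (median 4.29) and from 3.30 to 3.92 (median 3.61), a difference of -0.63 ± 0.12. CCSER2 and GPT2, mitochondrial alanine aminotransferase, differed by -0.62 ± 0.09 and -0.58 ± 0.10. The mean over the 2 probes of CCSER2 gave -0.32. SNX33, VNN1, TMED5, AFF4, SECISBP2L and GOLGA3 lay between -0.42 and -0.33. For VNN1 1 of 2 probes and for GOLGA3 1 of 4 had the opposite sign, and the means over probes were -0.17 and -0.02.

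**Figure D4:**
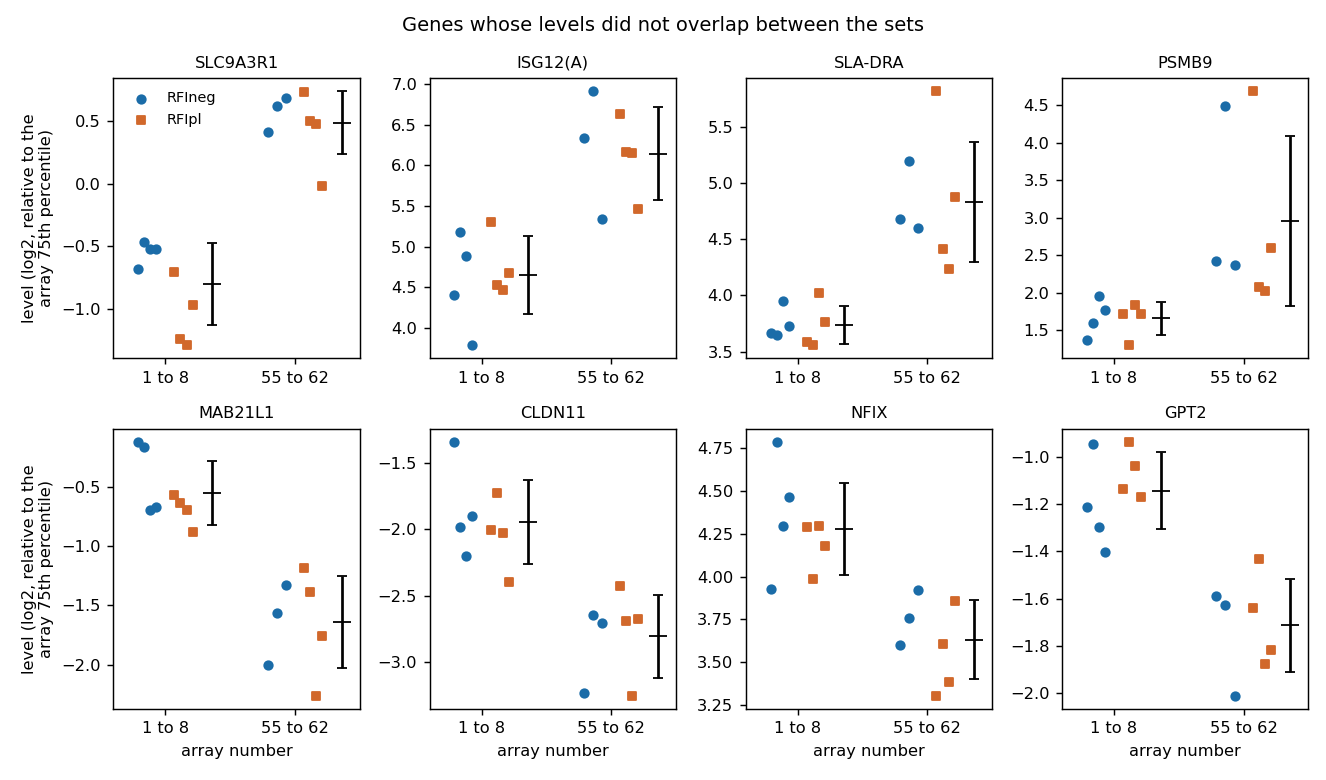
Levels of 8 genes whose ranges did not overlap (log2 relative to the array's 75th percentile, y axis) on arrays 1 to 8 (n = 8) and 55 to 62 (n = 7); points are pigs, blue RFIneg and orange RFIpl, with mean and SD in black. SLC9A3R1 spans -1.29 to -0.47 against -0.02 to 0.73, and PSMB9 is spread from 2.03 to 4.69 on arrays 55 to 62.

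The background correction set the size of the differences of dim genes. The processed signal has the background subtracted and a spatial trend removed. The normexp alternative starts from the raw mean signal and the local background, and adds an offset of 50. The offset by construction shrinks ratios of low signals. How much of each change came from the offset and how much from the other starting values was not tested. Of the 270 genes at least 1.5-fold higher, 134 were still so with normexp and 21 changed sign; of the 66 lower, 23 were still so and none changed sign. With normexp 138 genes in all were at least 1.5-fold higher (2.79%) and 23 lower (0.465%). Past 1.5-fold, 2 of 101 genes with a mean level under -3 kept that fold, 50 of 115 between -3 and 0, 69 of 80 between 0 and 3, and 36 of 40 above 3. IL10 went from 1.56 to 0.45 and CD2 from 2.05 to 0.35. DDX58, TLR3, CD86, CD3D and TTF2 gave 0.39, 0.42, 0.32, 0.27 and 0.52, all under 1.5-fold. CLDN11, KCTD17 and MVK, a gene of sterol synthesis, gave -0.53, -0.50 and 0.50, also under it. SLA-DRA gave 1.12 with normexp, CD74 0.95, ISG15 1.57 and MYL2 0.69. By list, normexp medians were 0.91 for interferon genes, 0.75 for MHC class I, 0.89 for class II, 0.69 for myeloid markers and 0.50 for slow fibre genes.

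**Figure D5:**
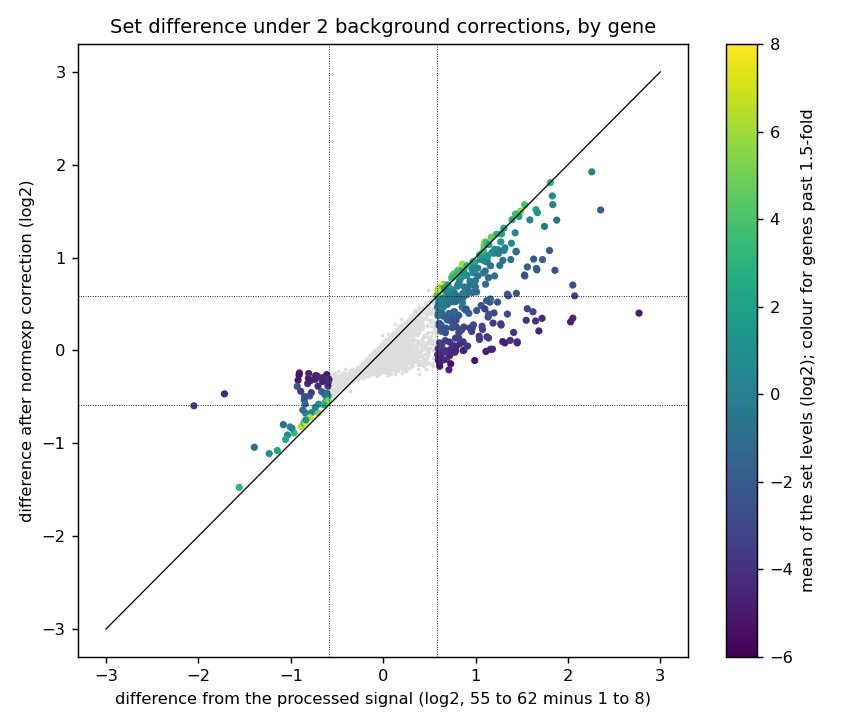
Fitted difference of each of 4944 genes from the processed signal (x axis, log2) and after normexp correction (y axis, log2); genes past 1.5-fold are coloured by mean level, the rest are grey, the solid line marks equality and dotted lines 1.5-fold. Dark, dim genes drop towards 0, with CD2 at 2.05 and 0.35, and bright genes stay near the line.

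A single array carried part of the count. Of the 270 higher genes, 90 fell below 1.5-fold when 1 array was left out, most often RFIpl replicate 5 (26 genes) or RFIneg replicate 6 (15), and 1 changed sign. Of the 66 lower genes, 31 fell below and none changed sign. ALB, albumin, lay at 3.25 in RFIpl replicate 6 and at -1.28 or below on the other arrays of its set; its difference of 0.67 ± 0.73 became -0.06 without that array. SPP1, osteopontin, differed by 0.85 ± 0.93, CLU, clusterin, by 0.83 ± 0.40 and XCL1, a chemokine of T and NK cells, by 0.85 ± 0.27; without 1 array each they gave 0.43, 0.48 and 0.53. MYL6B, a myosin light chain, went from 0.60 to 0.29 without RFIneg replicate 6. Among lower genes DMBT1, FCN2, CYP17A1, NRG3 and PLA2G1B, at -0.91, -0.60, -0.78, -0.71 and -0.71, gave -0.49, -0.22, -0.41, -0.40 and -0.41 in the same way.

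RFIpl replicate 5 also stood apart over all genes: on the first principal component, which held 22.9% of the variance over genes, it lay at 30.7, the other arrays 55 to 62 between 2.61 and 17.5 and arrays 1 to 8 between -16.1 and -3.94. Without it the medians were 1.02 for interferon genes, 0.70 for MHC class II, 0.84 for myeloid markers and 0.09 for complement genes. The count at least 1.5-fold higher became 242 and the count lower 97. On the slides the interferon list had medians of 1.06, 2.04, 0.68 and 0.87, MHC class II 0.96, 2.10, 0.32 and 0.82, and T and NK markers 1.90, 1.22, 0.15 and 1.17. These slide values rest on 1 or 2 arrays of each set and take no account of line. Of the 270 higher genes, 207 had the same sign on all 4 slides, and of the 66 lower, 44. The choice of these genes used the same arrays, so a shared sign was partly built in. No share over all genes is given beside these slide counts.

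The sets could be tested for one thing the split did not use, whether their difference depended on line. No gene and no probe passed for an interaction of set and line (limma, adjusted p under 0.05; 0% of 4944 genes and of 31981 probes), and the smallest adjusted p was 0.271 over genes and 0.871 over probes. At an unadjusted p under 0.05 there were 267 genes (5.40%) and 1794 probes (5.61%). The genes of smallest p were SRSF12, a splicing factor, with 0.99 ± 0.18 in RFIneg and -0.41 ± 0.17 in RFIpl, and KLF5, with -0.56 ± 0.24 and 1.19 ± 0.22 (limma adjusted p = 0.271 for both). SLC35E4, INPP5A and KLHL3 followed (limma adjusted p = 0.309, 0.703 and 0.718). The differences of the immune lists within the lines were 1.01 in RFIneg and 1.25 in RFIpl for interferon genes, 0.89 and 0.98 for MHC class II and 1.34 and 0.70 for T and NK markers. Of the 270 higher genes 265 had the same sign in both lines, and 174 were at least 1.5-fold higher in each. These genes were picked by their difference over both lines, so a shared sign was largely built in and supports nothing. No share over all genes is given beside these counts.

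Measures of the arrays themselves were also compared. Of 12 measures 5 use control spots, which carry no muscle RNA, and 1 of these is scaled by the muscle probes. None of the 4 from control spots alone passed after adjustment (two-sided exact permutation tests that enumerate every split of the arrays, Benjamini-Hochberg over the 12 measures). The raw signal of negative controls was 41.0 ± 3.92 intensity units (SD, n = 8) on arrays 1 to 8 and 35.2 ± 4.74 (SD, n = 7) on arrays 55 to 62 (exact permutation p = 0.0208, adjusted 0.125). Measures that draw on the muscle probes share the values that chose the split, so they are given here with no test. Where p-values of such measures appear among the processing alternatives below, they are no test of the sets and support nothing. The spike-in controls, relative to the 75th percentile of muscle probes, were at 1.55 ± 0.07 and 1.43 ± 0.11, and the share of probe spots well above background was 70.0% ± 4.92 and 74.7% ± 3.62. Their part in the values of dim genes such as FCGR1A and CD2 was not tested.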

How the data were processed

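Total RNA (150 ng per pig, per the labels) was amplified, labelled with Cy3 and hybridised to 1-colour Agilent arrays, 1 pig per array. Per the file headers, the scanner values are intensity, extracted with background subtraction and spatial detrending and no scaling between arrays. The authors' deposited table holds log2 values, found here to equal log2 processed signal minus the array median over 29364 spots (largest difference 4.93e-08); R 2.10.0 is named in the submitters' processing notes, and the table served as an alternative.

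Control spots were dropped, as were 496 spots that the scanner software marked as non-uniform, and 0 spots were saturated. Spots of a probe were averaged, log2 processed signal was scaled to each array's 75th percentile, and probes needed at least 4 values per set. Probes were named from accessions and symbols in the files through a RefSeq gene table (assembly Sscrofa11.1): 11936 had 1 symbol, 828 a LOC name, 234 several and 30593 none. A further 12 were left unnamed because the file describes another gene, as seen after the fit. Differences came from limma 3.58.1 (lmFit, eBayes) in R 4.3.3 with statmod 1.5.0, tested on simulated data; array measures used Python 3.11.15.

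The members, lists and naming rules were chosen with earlier results of these data known. Named are: 12 genes per direction of largest difference among those without overlap and well above background on at least 12 arrays; up to 4 members of each immune, fibre type, positional and metabolic list and 2 of each other list, by ratio of difference to SE; up to 5 genes per direction that lose the fold of 1.5 without 1 array; and 5 genes of smallest interaction p. A few genes that meet the rule are not reported here. Other members of the lists were named to fill out the description once values were known. Alternatives covered background, scaling, deposited values, filters, probe choice, line, medians, slide, replicate number and each array left out. The number of arrays limits the precision (median SE 0.126).

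Replicate numbers run within a line, and the labels name no pairing of pigs. Deviations of same-numbered arrays correlated between -0.249 and 0.112 over 7 numbers. Values from single pairs cannot show that no pairing existed.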

Additional observations from a re-analysis of the deposited data

Results flagged for a closer look

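For each list, gene and array measure, the gap between the highest or lowest array of a set and its nearest neighbour was compared with Dixon's critical value. This marked 30 of 388 sets; chance marks about 1 in 20. Values are levels in log2 unless a unit is given.

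RFIpl replicate 2 lay highest of arrays 1 to 8 for the HOX list (-0.049, next -0.67), VNN1 (4.06, next 3.62), SECISBP2L (0.0029, next -0.22), GOLGA3 (-0.28, next -0.68), COX3 (10.34, next 10.10) and ALB (-0.62, next -2.37). RFIneg replicate 1 lay lowest for the fast fibre list (8.00, next 8.30), MYH2 (6.21, next 7.82), ATP2A1 (5.92, next 6.50) and FOXO3 (-0.090, next 0.32), and highest for KCTD17 (-1.69, next -2.20). RFIneg replicate 2 lay lowest for PRKAB1 (-2.93, next -2.64) and FCN2 (1.40, next 2.45), and highest for BAG3, a chaperone partner (6.46, next 5.29). RFIneg replicate 3 lay highest for CYP17A1 (-0.63, next -3.42), NRG3 (-1.57, next -3.62) and ARNT (0.52, next 0.43). RFIpl replicate 1 lay lowest for ARNTL (-3.09, next -2.07) and highest for SPP1 (3.89, next 0.15). RFIpl replicate 3 lay highest for ZIC1 (-2.59, next -3.05) and RFIpl replicate 4 lowest for ATP5G2 (7.41, next 7.66).

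On arrays 55 to 62, RFIpl replicate 5 lay highest for CLU (3.53, next 1.46) and HOXB13 (-2.004, next -2.75), and RFIpl replicate 6 for ALB (3.25, next -1.28). RFIneg replicate 6 lay highest for XCL1 (-0.66, next -2.54) and RFIneg replicate 7 lowest for SLA-1 (6.71, next 8.00). RFIpl replicate 7 lay highest for FBN1 (-0.77, next -1.24), and RFIpl replicate 8 lowest for SLC9A3R1 (-0.020, next 0.41). Of the array measures, RFIpl replicate 7 had the lowest spike-in signal relative to the 75th percentile (1.18, next 1.42), and RFIpl replicate 6 the highest spread of the background-subtracted negative controls (3.32 intensity units, next 2.09).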

How the results depend on the processing

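Counts, list medians and array measures stayed on the same side or within the spread in 908 comparisons with an alternative, and moved, turned or newly passed in the rest. With normexp the genes without overlap and lower numbered 6 (22 before), and those at least 1.5-fold higher 138 (270). Those at least 1.5-fold lower numbered 23 (66), those meeting both conditions 15 (24), and the T and NK cell median was 0.28 (0.94). The offset shrinks ratios of low signals by construction, and normexp also starts from the raw mean signal. With no filter on dim probes 221 genes were at least 1.5-fold lower. The B cell median was 0.17 from set medians (0.60). Leaving out each array in turn gave 25 to 41 genes without overlap and higher, 24 to 44 lower and 27 to 40 meeting both conditions, since fewer arrays overlap less easily; the positional median ran from -0.27 to -0.18. With a replicate block (number as a random effect, correlation -0.0263; fixed for the interaction) the counts stayed at 270, 66 and 24, and the interaction at 0; it changed no other call. ALB (0.67) gave -0.14 from set medians, and from -0.061, without RFIpl replicate 6, to 0.956, without RFIpl replicate 8. The direction of the spike-in signal turned from set medians (adjusted p = 0.903, exact permutation), within RFIneg (0.829) and without RFIneg replicate 2 (0.983), RFIpl replicate 1 (0.984), 7 (0.548) or 8 (0.964), as did the CV of replicate spots within RFIneg (0.829) and without RFIpl replicate 2 (0.734); the cause was not tested. Over arrays left out, the adjusted p (exact permutation) of the spike-in signal ran from 0.548 to 0.984 and that of the CV from 0.532 to 0.924. That of the spike-ins relative to the 75th percentile ran from 0.0420, without RFIpl replicate 4, to 0.280. The CV and the spike-ins relative to the 75th percentile draw on the muscle probes, whose values chose the split. Their p-values, 0.0420 included, are therefore no test of the sets and support nothing. Signal over background limits the dim genes: 101 of the genes past 1.5-fold had a mean level under -3.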

Other observations

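A further group of genes was mostly lower on arrays 55 to 62, those of serine synthesis and of the amino acid response, through which cells short of amino acids raise transporters and tRNA synthetases. The group was drawn up after PHGDH, PSAT1 and SLC3A2 had been seen, so it is a description only. Its members PCK2, EIF4EBP1 and DDIT4 also belong to lists described above. Of 19 described members 18 were lower and 1 higher, with a median of -0.34, against 2914 of 4944 genes lower and a median of -0.05; 6 were at least 1.5-fold lower. PHGDH and PSAT1, the first enzymes of serine synthesis, ran from -1.47 to 1.38 against -3.33 to -0.62 (difference -1.40 ± 0.45) and from 0.40 to 3.04 against 0.19 to 0.99 (difference -1.23 ± 0.37). SLC3A2, the heavy chain of amino acid exchangers, ran from 1.83 to 3.58 (median 2.73) against 0.80 to 1.95 (median 1.78), a difference of -1.15 ± 0.26. PCK2, mitochondrial PEPCK, differed by -0.99 ± 0.29, the glutamine transporter SLC38A3 by -0.70 ± 0.16, the seryl-tRNA synthetase SARS by -0.54 ± 0.17 and ATF4, the factor that drives these genes, by -0.20 ± 0.09. DDIT4 was the 1 member higher, at 0.23 ± 0.18. The median was -0.39 in RFIneg and -0.29 in RFIpl, and -0.28 with normexp.

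Genes of sterol synthesis and uptake, also grouped after values had been seen, were higher for 14 of 16, with a median of 0.26. That median was 0.15 with normexp. At least 1.5-fold higher were 3 of them, and the 2 lower members were SREBF2 and FDPS. SQLE, squalene epoxidase, differed by 1.11 ± 0.29 and MVK, mevalonate kinase, by 0.70 ± 0.11 without overlap. The median was 0.59 in RFIneg and 0.04 in RFIpl. KCNIP2, a potassium channel subunit, was 3.15-fold higher, from 0.11 to 1.83 against 1.79 to 3.82 (1.65 ± 0.32), with 2.21, 1.25, 1.48 and 1.53 on the slides.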
